A study of Caenorhabditis elegans with 2 samples.

Results

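The genes described here encode the enzymes that break glucose down to pyruvate and feed its carbon through the citric acid cycle, in the nematode Caenorhabditis elegans. They were chosen by symbol in the Ensembl annotation of WBcel235, with earlier results of these data known, and all 40 listed genes were found among 19973 nuclear protein-coding genes. Of the 40, 18 belong to glycolysis, 4 to the pyruvate dehydrogenase complex and 18 to the citric acid cycle and its cytosolic counterparts. The study mapped the sites of 1 tagged protein by chromatin immunoprecipitation and sequencing (ChIP-seq), which recovers the DNA that lies close to a protein. The worms were strain RW12180, with the allele st12180 on chromosome I, in which TY1, EGFP and 3xFLAG were joined to dox-1 by CRISPR. The labels name the CRISPR target dxbp-1. Both biological replicates were whole young adults aged 66 hours, grown from bleached and starved L1 larvae. Sonicated chromatin of 200 to 800 bp was precipitated with an antibody to GFP.

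These 2 replicates form 1 group, and the labels give no second condition, so the values describe where the protein was found and allow no test between groups. Chromatin came from whole animals, and the tissue in which a site was occupied cannot be told apart in such samples. The authors deposited peak lists without read counts, so depth is unknown. Their conservative set holds 3291 peaks made from both samples, and their larger set holds 4441. Each replicate also has a ranked list before thresholding, with 56265 peaks in replicate 1 and 65301 in replicate 2, and a thresholded list with 3105 and 2983 peaks. Thresholded peaks had an irreproducible discovery rate (IDR, low where a peak is likely to be found again) no higher than 0.01. Each of these lists belongs to 1 replicate, so a low IDR there does not show that the other replicate had the peak. An experiment that the labels give as a possible control is not analysed here. A gene is called bound where the summit of a conservative peak lay, and unbound where none lay, from 1000 bp upstream to 200 bp downstream of any of its transcript starts. The signal of a peak is the authors' own value. It is used here to describe and rank peaks, and signals of the conservative set are not on the scale of those of the replicates. No scaling between the replicates is stated, so each mean ± SD, and each ratio of one replicate to the other, includes any difference in scale between their lists.

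Glycolysis turns glucose into pyruvate in the cytosol. In its early steps the sugar is phosphorylated and split, and in its later steps ATP and NADH are formed. The pyruvate dehydrogenase complex then makes acetyl-CoA in mitochondria, and the citric acid cycle oxidises it and passes electrons to the respiratory chain. In C. elegans these pathways are known for their part in fat and glycogen use, in the dauer state and in lifespan. Several steps are encoded by more than 1 gene, some with a cytosolic and a mitochondrial form.

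Promoter summits were found at genes of both pathways. In the conservative set 20 of the 40 genes had one, a share of 50% with a Wilson 95% interval of 35.2 to 64.8%, against 10.9% of all protein-coding genes. For glycolysis it was 8 of 18 (44.4%, interval 24.6 to 66.3%), and for the pyruvate dehydrogenase complex and the cycle together it was 12 of 22 (54.5%, interval 34.7 to 73.1%). The intervals of the pathways overlap over most of their length, and they cover counting error only. The cycle supplies the respiratory chain and ATP synthase. A list of 35 of their genes was taken by the symbol prefixes nuo-, cox-, ucr- and atp-, with isp-1 and cyc genes. Of these 18 had a summit (51.4%, interval 35.6 to 67.0%). Genes under other symbols, among them those of succinate dehydrogenase, are not in that list. Any gene with a listed prefix is in it, whether or not it encodes a subunit. The share is thus not that of the whole chain. Genes with several transcript starts have longer windows, and a single start was annotated for 24 of the 40 genes (60%), against 72.6% of all genes. Among genes with a single start, 12 of the 24 members were bound, against 8.73% of all such genes.

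The other peak sets gave similar counts. The larger set held 21 of the 40 genes, against 13.7% of all genes. The thresholded list of replicate 1 held 15, against 10.2% of all genes. The thresholded list of replicate 2 held 19, against 10.3% of all genes. In replicate 1 these were 7 glycolysis genes and 8 of the complex and the cycle, and in replicate 2 they were 8 and 11. The ranked lists hold peaks before thresholding and are far less selective. Summits in both ranked lists were found at 32 of the 40 genes, 14 of glycolysis and 18 of the complex and the cycle, against 37.7% of all genes.

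**Figure D1:**
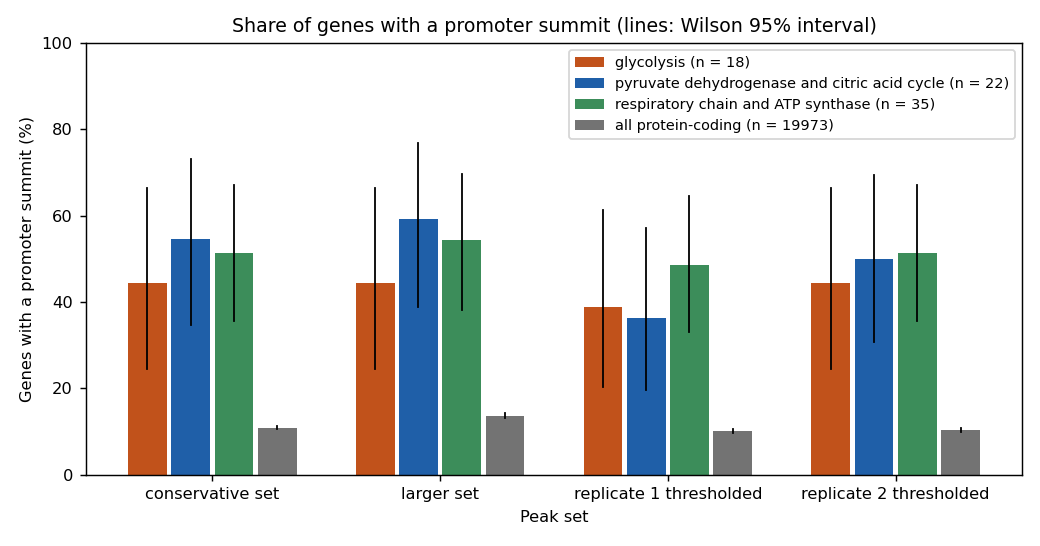
Bars give the percent of genes with a promoter summit in 4 peak sets for glycolysis, for the pyruvate dehydrogenase complex with the citric acid cycle, for the listed genes of the respiratory chain with ATP synthase, and for all protein-coding genes. Lines give Wilson 95% intervals. In the conservative set the bars stand at 44.4%, 54.5%, 51.4% and 10.9%, and the intervals of the pathways overlap in each set.

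The bound genes were not among the strongest promoters as a group. Their median conservative signal was 278, with a range of 164 to 745, against a median of 296 over all bound genes. The signal of 9 of the 20 lay above that median, 5 of 8 in glycolysis and 4 of 12 in the complex and the cycle. The median was 339 for the glycolysis genes and 250 for the complex and the cycle. In the replicates' own lists the bound members had medians of 150 and 136, against 155 and 147 for all bound genes. The order of the pathways held in replicate 2, with 167 for glycolysis and 128 for the complex and the cycle, and was small in replicate 1, with 150 and 140. The signals of the 8 and 12 genes overlap, and these medians are a description.

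Early glycolysis was bound at its entry and at the aldolase step. All 3 hexokinase genes, whose products phosphorylate glucose, had a conservative summit. The signal at hxk-1 was 157 in replicate 1 and 121 in replicate 2, a mean of 139 ± 25.5 (SD, n = 2). At hxk-2 it was 144 and 168, a mean of 156 ± 17.3. At hxk-3 it was 93.4 and 121, a mean of 107 ± 19.8. The hexokinase means thus ran from 107 at hxk-3 to 156 at hxk-2. Replicate 1 was the higher at hxk-1, and replicate 2 at hxk-2 and hxk-3. The summits sat in different places. That of hxk-1 lay in its own intron, 928 bp upstream of an inner transcript start, and was outside the window of the outermost start. That of hxk-2 lay 266 bp upstream, but only 151 bp upstream of cdk-9, a cyclin-dependent kinase gene, so it was not given to hxk-2 when only the nearest start counted. That of hxk-3 lay in the 5′ UTR, 35 bp downstream of a start.

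The next enzyme, glucose-6-phosphate isomerase, is encoded by gpi-1, which had 127 in replicate 1 and 219 in replicate 2, a mean of 173 ± 65.1 (n = 2). This was the widest spread among the bound glycolysis genes, and its summit lay 26 bp downstream of a start in the 5′ UTR. Phosphofructokinase catalyses the committed step of the pathway, and neither of its genes was bound. No ranked summit lay in the window of pfk-1.2 in either replicate, and pfk-1.1 had only 45.4 and 19.0. The aldolases cleave the phosphorylated sugar, and they differed between copies. The signal at aldo-2 was 256 in replicate 1 and 204 in replicate 2, a mean of 230.0 ± 36.8 (n = 2), from a summit 43 bp downstream of its start in the 5′ UTR. At aldo-1 there was no ranked summit in replicate 1 and a signal of 45.7 in replicate 2. Triose phosphate isomerase, which interconverts the cleavage products, is encoded by tpi-1, and its window held no ranked summit in either list.

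Later glycolysis held the strongest promoter summit of all 40 genes, in the window of pgk-1, and none at the steps that follow it. Phosphoglycerate kinase, its product, forms ATP. The signal there was 389 in replicate 1 and 357 in replicate 2, a mean of 373 ± 22.6 (n = 2), and its conservative signal of 745 ranked 178 of 3291. This summit lay 906 bp upstream of pgk-1 and was nearer to hcp-4, a centromere protein gene on the other side, at 697 bp. Under a window that starts 500 bp upstream, or with each summit given only to its nearest start, pgk-1 was not counted. Of the enzymes that follow, ipgm-1 (phosphoglycerate mutase), enol-1 (enolase) and the pyruvate kinase genes pyk-1 and pyk-2 had no conservative promoter summit. The signal at ipgm-1 was 79.4 and 69.2, with summits 133 and 140 bp upstream, and at enol-1 it was 67.8 and 67.4. Pyruvate kinase makes pyruvate in the last step, and pyk-1 missed the window narrowly. Its conservative summit of signal 263 lay in an intron 208 bp downstream of a start, with 134 and 142 in the replicates, and 2 further summits lay 1116 and 1319 bp upstream.

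Glyceraldehyde-3-phosphate dehydrogenase, which forms NADH, has 4 genes in C. elegans, and they need care because they are near copies. The signal at gpd-1 was 180.1 in replicate 1 and 166 in replicate 2, a mean of 173 ± 9.79 (n = 2), from an intergenic summit 225 bp upstream. At gpd-2 it was 95.04 and 74.9, a mean of 85.0 ± 14.3, from a summit in the coding exon 70 bp downstream of the start. That was the lowest conservative signal of the bound members, at 164, and it passed the threshold in neither replicate's own list. At gpd-3 the ranked signals were 59.9 and 62.7, and at gpd-4 they were 30.0 and 61.6. The gpd-3 summits, 438 and 565 bp upstream, lay within gpd-2, which ends just upstream of gpd-3 on the same strand. These gpd-3 values may therefore not describe a promoter separate from gpd-2. The coding sequences of gpd-1 and gpd-4 are 99.0% identical, and those of gpd-2 and gpd-3 are 97.4% identical over 1023 bp. The window of 50 bp on each side of the gpd-1 summit shares no run longer than 14 bp with the gpd-4 promoter window. The gpd-2 window shares a run of 68 bp with that of gpd-3, so reads there could be split or misplaced between the copies, and the gpd-2 value is uncertain. The same holds for a further summit inside the coding exon of gpd-1, 870 bp downstream of its start, which had 121 in replicate 1 and no ranked peak in replicate 2.

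Windows of 50 bp on each side of glycolysis summits show the settings just described, an upstream site, 5′ UTR sites and a site in a duplicated coding exon. They come from the RefSeq genome of WBcel235 (ce11), and are written 5′ to 3′ on the strand of the gene. The window of hxk-3 is chrIV:1497611-1497711 (plus strand) and that of aldo-2 is chrIII:5876377-5876477 (minus strand). The window of gpd-1 is chrII:10393854-10393954 (plus strand) and that of gpd-2 is chrX:3114569-3114669 (minus strand). In hxk-3 capitals mark the reverse complement of the word ACGCAG and, after it, that of a repeat, GAGAGA. In aldo-2 and gpd-1 they mark GCGCGC, and runs of it. These words are counted further on. In gpd-2 capitals mark the 68 bp shared with the gpd-3 promoter window.
hxk-3: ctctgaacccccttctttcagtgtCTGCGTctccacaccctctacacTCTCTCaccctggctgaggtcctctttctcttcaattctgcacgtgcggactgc
aldo-2: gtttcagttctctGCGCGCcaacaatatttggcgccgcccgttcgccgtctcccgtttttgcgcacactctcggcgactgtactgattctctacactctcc
gpd-1: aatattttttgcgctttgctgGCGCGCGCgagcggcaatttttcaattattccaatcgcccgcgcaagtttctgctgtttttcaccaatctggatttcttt
gpd-2: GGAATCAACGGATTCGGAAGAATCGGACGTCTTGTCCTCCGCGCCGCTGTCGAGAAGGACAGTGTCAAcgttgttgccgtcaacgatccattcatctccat

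**Figure D2:**
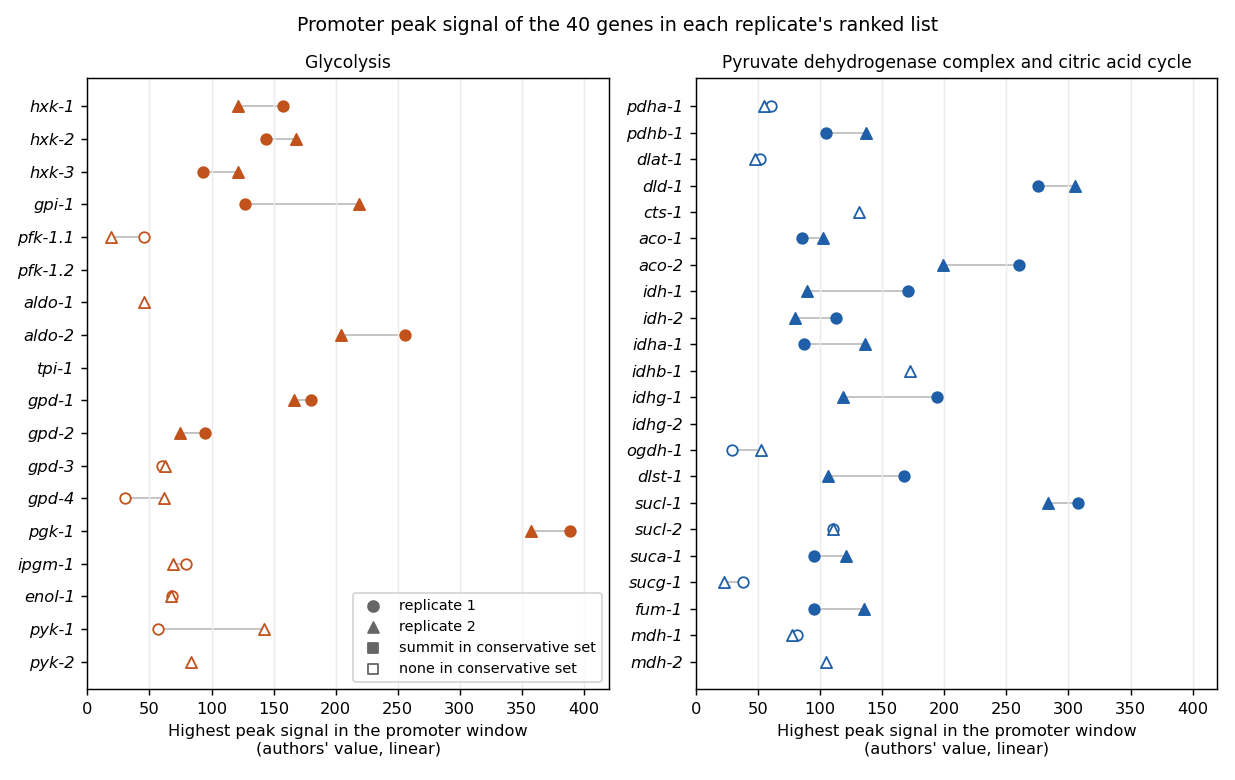
Circles (replicate 1) and triangles (replicate 2) give the highest peak signal in the promoter window of each of the 40 genes, from the ranked list of that replicate, in pathway order, with glycolysis on the left and the pyruvate dehydrogenase complex and citric acid cycle on the right. Filled symbols mark the 20 genes with a conservative summit, and pgk-1 is the farthest right at 389 and 357. Rows with no symbol are pfk-1.2, tpi-1 and idhg-2, and 5 rows hold a triangle only.

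The pyruvate dehydrogenase complex was bound at 2 of its 4 genes. The E3 subunit gene dld-1, whose product also serves the 2-oxoglutarate dehydrogenase complex, had 276 in replicate 1 and 305 in replicate 2, a mean of 291 ± 21.0 (n = 2). Its summit lay 221 bp upstream, inside the noncoding RNA gene LLC1.120, and its conservative signal of 565 was among the highest of the 40. The E1 beta gene pdhb-1 had 105 and 137, a mean of 121 ± 22.5. That summit was 355 bp upstream of pdhb-1 but 86 bp upstream of dyf-3, a gene needed for cilia, and was not given to pdhb-1 when only the nearest start counted. The E1 alpha gene pdha-1 had 60.0 and 55.0, and the E2 gene dlat-1 had 51.8 and 47.6, both below every bound member in both replicates.

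Citrate synthase joins acetyl-CoA to oxaloacetate, and its gene cts-1 had no ranked summit in replicate 1 and a signal of 131 in replicate 2. Aconitase converts citrate to isocitrate, and both its genes were bound. The signal at aco-2, the mitochondrial form, was 259.8 in replicate 1 and 199 in replicate 2, a mean of 229 ± 42.9 (n = 2). The summit lay 339 bp upstream of aco-2, in the 5′ UTR of eef-1B.1, a translation elongation factor gene, 8 bp from the start of that gene, and was not given to aco-2 when only the nearest start counted. At aco-1, the cytosolic form, the signal was 85.4 and 102, a mean of 93.8 ± 11.8, from an intergenic summit 275 bp upstream. The aco-1 peak passed the threshold in neither replicate's own list, and it and the gpd-2 peak were the 2 bound members of which that was true.

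Isocitrate dehydrogenases make 2-oxoglutarate, either with NADP (idh-1 in the cytosol and idh-2 in mitochondria) or with NAD as a complex of alpha, beta and gamma subunits in mitochondria. Of these 6 genes 4 were bound. The signal at idh-1 was 170.4 in replicate 1 and 89.3 in replicate 2, a mean of 129.9 ± 57.3 (n = 2). The replicates' highest summits there lay on opposite sides of a start, 143 bp downstream in replicate 1, so the pair may not describe 1 site. A further conservative summit of idh-1, of signal 204, lay outside the window, 1205 bp upstream. At idh-2 the signal was 112 and 79.6, a mean of 96.0 ± 23.2, from an intergenic summit 258 bp upstream that also lies in the window of C34F6.7. The alpha subunit gene idha-1 had 87.0 and 136, a mean of 111 ± 34.5, from a summit 239 bp upstream. The gamma subunit gene idhg-1 had 194 and 118, a mean of 156 ± 53.6, from a summit 51 bp upstream in a promoter shared with mlcd-1, a malonyl-CoA decarboxylase gene. The beta subunit gene idhb-1 was not bound in the conservative set, and the other gamma gene, idhg-2, had no ranked summit in either list. Replicate 1 was the higher in idh-1, idh-2 and idhg-1, and replicate 2 in idha-1.

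The 2-oxoglutarate dehydrogenase complex had a summit at its E2 gene dlst-1, with 167 in replicate 1 and 106 in replicate 2, a mean of 137 ± 43.1 (n = 2). It lay 131 bp upstream, within the noncoding RNA gene W02F12.11. The E1 gene ogdh-1 had promoter signals of only 29.2 and 52.0, but a conservative summit of signal 388 lay 1331 bp upstream of it, with 262 and 124 in the replicates and no nearer protein-coding start. Succinyl-CoA ligase forms ATP or GTP directly. Its alpha subunit gene sucl-1 had 307 and 284, a mean of 296 ± 16.6, from an intergenic summit 314 bp upstream, the highest mean of the 22 genes of the complex and the cycle listed here, above that of dld-1 by less than the SD of either. Its ATP-forming beta subunit gene suca-1 had 95.03 and 120.5, a mean of 108 ± 18.0, from a summit 405 bp upstream. The GTP-forming beta subunit gene sucg-1 had 38.1 and 22.5, below every bound member. Fumarase hydrates fumarate to malate, and fum-1 had 94.7 and 135, a mean of 115.02 ± 28.8, from a summit in its coding exon 67 bp downstream of the start. Malate dehydrogenase closes the cycle. Its cytosolic gene mdh-1 had 81.4 and 77.2 and was the 1 gene gained in the larger set, and its mitochondrial gene mdh-2 had no ranked summit in replicate 1 and 105 in replicate 2.

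Summit windows from the complex and the cycle show the strongest sites (sucl-1, dld-1 and aco-2) beside weaker ones that hold a word (pdhb-1, dlst-1 and suca-1). The windows are chrX:14753662-14753762 for sucl-1, chrIV:14464246-14464346 for dld-1 and chrIII:7973328-7973428 for aco-2, all on the plus strand. Those of the weaker sites are chrIV:3399267-3399367 for pdhb-1 on the plus strand, and chrV:6709182-6709282 for dlst-1 and chrX:10900469-10900569 for suca-1 on the minus strand. Capitals mark the same 3 words, and dld-1 and aco-2 hold none of them.
sucl-1: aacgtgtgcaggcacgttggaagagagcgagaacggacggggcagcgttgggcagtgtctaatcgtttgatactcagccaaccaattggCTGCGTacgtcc
dld-1: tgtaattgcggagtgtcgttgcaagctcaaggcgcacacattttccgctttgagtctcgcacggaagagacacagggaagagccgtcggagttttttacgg
aco-2: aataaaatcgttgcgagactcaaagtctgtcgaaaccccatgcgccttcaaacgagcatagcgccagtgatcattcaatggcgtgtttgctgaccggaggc
pdhb-1: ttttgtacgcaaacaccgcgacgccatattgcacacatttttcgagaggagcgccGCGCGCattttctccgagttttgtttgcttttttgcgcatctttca
dlst-1: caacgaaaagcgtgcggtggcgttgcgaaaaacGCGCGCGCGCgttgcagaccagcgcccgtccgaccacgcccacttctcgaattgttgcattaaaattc
suca-1: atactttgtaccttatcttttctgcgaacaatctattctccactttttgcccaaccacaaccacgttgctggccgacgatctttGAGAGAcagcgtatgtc

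The words were picked because they are frequent at all conservative summits of this series, so their presence at member summits is a description. Each was searched on both strands within 50 bp of the summit, and in equal windows 300 bp away. ACGCAG was found at 2 of the 20 member summits (hxk-3 and sucl-1), against 12.7% of all 3291 summits and 2.64% of the flanking windows. GAGAGA was found at 3 (hxk-1, hxk-3 and suca-1), against 20.4% of all summits and 6.43% of flanks. GCGCGC, which is its own reverse complement, was found at 5 (hxk-2, aldo-2, gpd-1, pdhb-1 and dlst-1), against 8.08% of all summits and 0.927% of flanks. At least 1 of the 3 was present at 9 of 20 member summits, against 34.3% of all summits and 9.39% of flanks. The window of hxk-3 was the 1 member window with 2 different words, and they do not overlap. The median GC content was 50.5% at member summits, with a range of 34.7 to 58.4%, against 47.5% at all summits.

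Member summits lay mostly upstream of the start. The median position of the 20 summits was 232 bp upstream, against 254 bp upstream over 2425 gene and summit pairs of all genes. Of the members 14 were upstream, against 92.0% of all pairs. In glycolysis 4 of 8 were upstream of the nearest start, and hxk-3, gpi-1, aldo-2 and gpd-2 had theirs downstream. The hxk-1 summit, upstream of an inner start, also lay within the transcribed part of its gene. In the complex and the cycle 10 of 12 were upstream, and 8 of 12 lay between 200 and 500 bp upstream, against 2 of 8 in glycolysis and 35.5% of all pairs. Another protein-coding gene's window held the same summit at 6 of 20 members, against 48.3% of all pairs. The member's own start was the nearest at 16 of 20, against 73.1% of all pairs. An annotated noncoding gene lay within 500 bp of 7 of 12 summits in the complex and the cycle and of 0 of 8 in glycolysis, against 22.1% of all pairs. These counts are small, and the difference between the pathways was not tested.

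**Figure D3:**
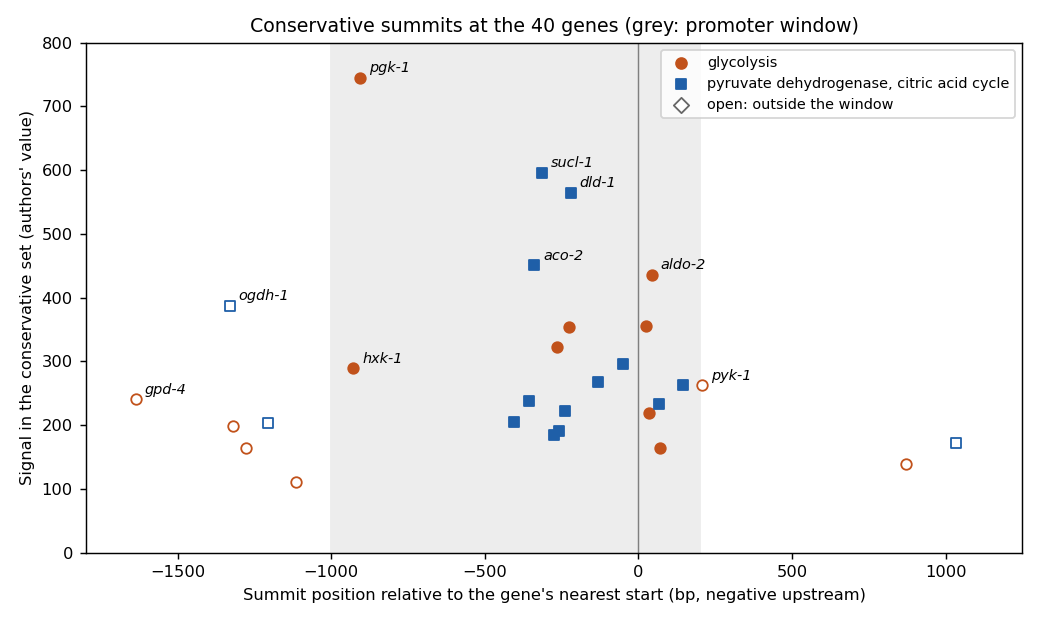
Each symbol is a conservative summit, placed by its position relative to the nearest start of the gene in bp (negative is upstream) and by its signal in the conservative set, with circles for glycolysis and squares for the pyruvate dehydrogenase complex and citric acid cycle. Filled symbols lie in the grey promoter window and open symbols lie up to 1000 bp beyond it. Most squares gather between 200 and 500 bp upstream, pgk-1 and hxk-1 lie near the far edge at 906 and 928 bp, and pyk-1 falls just outside at 208 bp downstream.

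By chromosome, bound members numbered 5 of 8 on X, where 9.81% of all genes were bound, and 4 of 8 on III, where 15.4% were. They numbered 4 of 7 on IV and 1 of 5 on II, against 11.2% and 10.4% of all genes there. On V it was 1 of 4, against 7.19% of all genes, and on I it was 5 of 8, against 14.8%. With 4 to 8 members a chromosome, these counts are a description. The members bound on I were hxk-1 (summit at 9274722 in a peak from 9274504 to 9274939), hxk-2 (summit at 11323376), gpi-1 (summit at 13576191), pgk-1 (summit at 3866635 in a peak from 3866476 to 3866786) and idha-1 (summit at 8608870), all on ce11 and counted from 1. The peaks of all conservative members had a median width of 436 bp, as had all conservative peaks. Many member peaks had exactly this width, so the equal medians say little about these genes.

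The replicates gave near values at bound members. These genes were chosen through peaks of both samples that had passed a threshold on reproducibility, so such closeness is in part built in. Replicate 1 was the higher at 11 of the 20 and replicate 2 at 9, and all 20 were within 2-fold, against 98.3% of 2152 bound genes with a ranked summit in both. On the log2 scale replicate 1 over replicate 2 had a median of 0.12 and an SD of 0.48 over the 20 genes, against 0.08 and 0.42 over all bound genes. The least alike were idh-1, gpi-1 and idhg-1, with gpi-1 the higher in replicate 2 and the others in replicate 1. The replicates' highest summits were a median of 25 bp apart and within 50 bp at 14 of 20, and at idh-1 and suca-1 they were over 100 bp apart. The peak passed the authors' threshold in both replicates' own lists at 7 of 8 bound glycolysis genes and 5 of 12 of the complex and the cycle. Neither this count nor the summit distances are given over all bound genes, so the usual share is not known here. The difference between the pathways was not tested. The 2 samples' lists do not have equal reach, since 13.4% of the thresholded peaks of replicate 2 had no ranked peak in replicate 1, against 2.58% in the other direction.

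**Figure D4:**
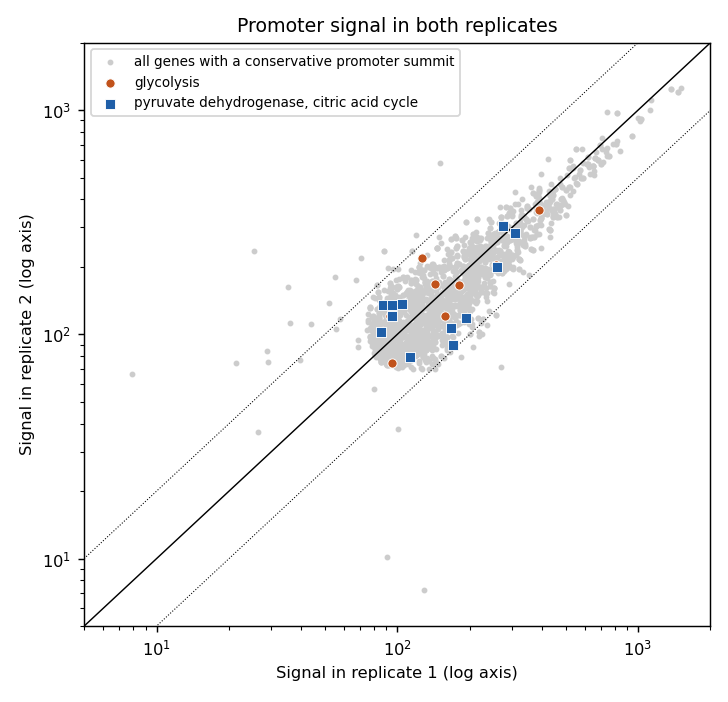
Each point is a gene with a conservative promoter summit, placed by its ranked signal in replicate 1 and in replicate 2 on log axes, with glycolysis as circles, the pyruvate dehydrogenase complex and citric acid cycle as squares, and all such genes in grey. The solid line marks equal values and the dotted lines mark 2-fold, and all 20 members lie between the dotted lines.

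The 20 unbound genes were not all alike. In 3 of them, pfk-1.2, tpi-1 and idhg-2, no ranked summit lay in the window. In 12 both ranked lists had one, and in 5 (aldo-1, pyk-2, cts-1, idhb-1 and mdh-2) replicate 2 alone had one. Their median signal was 58.5 in replicate 1 and 67.4 in replicate 2, against 150 and 136 at bound members. The split rests on peaks called from the same 2 samples, so a lower signal at unbound genes is built into it. The highest 5 by mean signal, with an unlisted summit counted as 0, were sucl-2, pyk-1, idhb-1, mdh-1 and ipgm-1. The alpha ligase gene sucl-2 had a conservative summit of signal 172 outside its window, in its coding exon 1035 bp downstream of the start. Within the window it had 110 in both replicates, but from different summits. They lay 594 bp upstream in replicate 1 and 24 bp downstream in replicate 2. At pyk-1 the signal was 57.0 and 142, also from different summits. At idhb-1 it was 172 in replicate 2, from a summit 21 bp downstream with an IDR of 0.00027, and replicate 1 had none. The lowest signal of a bound member was reached by 1 unbound gene in replicate 1 and by 7 in replicate 2, so the groups overlap more in replicate 2. The thresholded list of replicate 2 held pyk-1, idhb-1, sucl-2 and mdh-2, and that of replicate 1 held no unbound member.

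Neighbouring steps of metabolism were read from a further list of 29 genes, also chosen with earlier results known, of which 8 were bound (27.6%), against 10.9% of all genes. The larger set held 11 of them, against 13.7% of all genes. The thresholded lists held 12 in replicate 1 and 7 in replicate 2, against 10.2% and 10.3% of all genes. Succinate dehydrogenase, which belongs to both the cycle and the respiratory chain, was bound at 4 of 5 genes. The signal at mev-1, its cytochrome b subunit, was 364 in replicate 1 and 272 in replicate 2. That promoter is shared with jmjd-4, whose start was slightly nearer to the summit, at 124 against 135 bp. At the flavoprotein genes it was 245 and 254 for sdha-1, and 104 and 133 for sdha-2. At sdhd-1 it was 132 and 95.6, from a summit 932 bp upstream in an intron of ilkp-1, whose start was nearer at 590 bp. The sdhd-1 peak did not pass the threshold in the list of replicate 2. With each summit given only to its nearest start, mev-1 and sdhd-1 would not be counted. The iron-sulphur subunit gene sdhb-1 had 57.2 in replicate 2 and no ranked summit in replicate 1. Outside that enzyme 4 of 24 genes were bound (16.7%, Wilson interval 6.68 to 35.9%), an interval that includes the 10.9% of all genes. That count was 7 in the larger set, 8 in the thresholded list of replicate 1 and 4 in that of replicate 2, against 13.7%, 10.2% and 10.3% of all genes.

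Those 4 bound genes act beside the pathways. Phosphoenolpyruvate carboxykinase draws oxaloacetate out of the cycle for glucose synthesis, and pck-2 had 359 in replicate 1 and 454 in replicate 2, above every one of the 40 genes in replicate 2 and below pgk-1 in replicate 1. Its conservative signal was 792. Pyruvate dehydrogenase is switched off by a kinase and on by a phosphatase, and both genes were bound. The kinase gene pdhk-2 had 375 and 293, and the phosphatase gene pdp-1 had 124 and 100.5, from a promoter in which the start of ZK973.8 was nearer. Glycogen phosphorylase releases glucose from glycogen, and pygl-1 had 239 and 196 from a summit in its 5′ UTR. In the conservative set 0 of the 4 genes of the pentose phosphate pathway and 0 of the 4 regulators hif-1, aak-2, pfkb-1.1 and pfkb-1.2 had a promoter summit, against 10.9% of all genes. The Wilson interval of 0 of 4 reaches 49.0%, so nothing can be read from either count. The transketolase gene tkt-1 was in the larger set and in the thresholded list of replicate 2, with 34.5 in replicate 1 and 139 in replicate 2. The gene aak-2, a catalytic subunit of AMP-activated protein kinase, was in the larger set and in the thresholded list of replicate 1, with 153 and 65.7.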

How the data were processed

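ChIP-seq of 2 replicates of 1 group was used as peak lists on ce11, per the file headers. The sources used here name no aligner or peak caller. The deposited signal is the caller's own value, and no scaling between samples is stated. In the ranked lists the authors give the IDR on a −log10 scale, and the highest IDR in a thresholded list was 0.01. Summits were set against transcript starts of Ensembl release 115. Where a window held several ranked summits the highest was taken.

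Members and lists were chosen with earlier results of these data known. Every bound member is named, with the 5 highest unbound members and those with no ranked summit; other unbound members were named after their values were seen. fgt-1 was not found under that symbol and is not used. Shares carry Wilson 95% intervals. No test was made. Alternatives changed the peak set, signal minimum, window, start rule, members and replicates. The counting was tested on simulated data. Python 3.11.15, numpy 2.4.6, pandas 2.3.3, scipy 1.17.1 and matplotlib 3.10.9 were used.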

Additional observations from a re-analysis of the deposited data

How the results depend on the processing

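No paired analysis was possible because the samples form 1 group. Of 40 genes, 20 were bound in the conservative set, 18 with a window from 500 bp upstream (without hxk-1 and pgk-1), 24 from 2000 bp, 16 with each summit given to its nearest start and 19 with the outermost start. In the same order, the shares of all genes were 10.9%, 8.64%, 14.2%, 8.12% and 10.1%. With 1 replicate's own thresholded list in place of both, the count was 15 to 19 for all, 7 to 8 for glycolysis and 8 to 11 for the complex and the cycle. Those lists held 10.2% (replicate 1) and 10.3% (replicate 2) of all genes. Without replicate 2 the complex and the cycle had 8, and pdhb-1, aco-1, idha-1 and fum-1 were lost, as was gpd-2 in glycolysis. Without replicate 1, gpd-2, aco-1, idh-1, idh-2 and idhg-1 were lost, and pyk-1, idhb-1, sucl-2 and mdh-2 were gained. Summits in both ranked lists fell to 7 glycolysis genes and 11 of the complex and the cycle with an IDR of at most 0.05, a stricter limit by construction, against 9.83% of all genes. With either ranked list alone they numbered 14 to 16 and 18 to 21, against 44.1% of all genes in replicate 1 and 53.3% in replicate 2. The median of the bound members' mean signals was 138, and 136 to 150 with 1 replicate. The other settings, a larger peak set, a signal of at least 100, overlap of the peak interval, and leaving out cytosolic isoforms or the pyruvate dehydrogenase complex, kept the counts of the 40 genes and of both pathways within 1.5 times. In the further list outside succinate dehydrogenase, the 4 bound genes became 7 in the larger set and 8 in the list of replicate 1. Those sets held 13.7% and 10.2% of all genes. With 2 replicates and unknown depth, a gene without a summit was not detected at the authors' threshold, which does not show that it is unoccupied.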
